A study of Mus musculus with 4 samples.

Results

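Clec1a and 7 C-type lectin genes that lie near it on mouse chromosome 6 were examined in sorted hematopoietic stem cells: Clec1b, Clec2d, Clec2i, Clec7a, Clec9a, Clec12a and Clec12b. These 8 genes, of 24016 gene symbols in the count tables, were taken by symbol, each represented by its deposited transcript with the highest count over all 4 libraries. They were chosen from the measured difference between NHD13 and wild-type cells, so their levels and fold changes are given as a description, without p-values. All mice were C57BL/6 and 4 months old. Wild-type mice (WT) gave 2 libraries, and the other 2 came from mice with the NHD13 transgene, a NUP98-HOXD13 fusion used to model myelodysplastic syndrome. The labels do not name the promoter of the transgene; as background, this line is driven by regulatory sequence of Vav1, active across blood cells. In both groups, bone marrow cells were sorted as lineage-negative, Sca-1+, c-Kit+, CD34-, Flt3- and CD150+. The labels do not tie libraries to single mice or pools, so every SD and p-value covers the variation among these libraries alone, which may be technical.

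C-type lectin-like receptors are membrane proteins with an extracellular domain of the lectin fold, and many of them bind ligands other than sugars. Some signal through a tyrosine motif in the cytoplasmic tail that recruits the kinase Syk, others carry an inhibitory motif that recruits the phosphatases encoded by Ptpn6 and Ptpn11, and a few act mainly as ligands for receptors of natural killer cells. In blood they are best known on platelets, dendritic cells, granulocytes, monocytes and natural killer cells.

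The libraries held 35025974 to 48423689 counts with 1 transcript per gene. Levels are in CPM, counts per 1000000 of the library total after TMM scaling, and edgeR's quasi-likelihood test with Benjamini-Hochberg adjustment was run on 14853 genes. It called 636 genes (4.28 percent) at an adjusted p under 0.05, 2.07 percent of the tested genes as higher in NHD13 and 2.22 percent as lower. Leaving out either WT library left edgeR with 0 calls, so every edgeR call below is lost without WT library 1 and without WT library 2. In those fits 2332 and 2605 genes had an unadjusted p under 0.05. Calls by DESeq2 then numbered 955 and 1067, and those by limma-voom 0 and 0. Of the genes behind the sort, Kit was at 991 to 1271 CPM and Slamf1, which encodes CD150, at 117 to 143 CPM, while Ly6a, which encodes Sca-1, was at 273 and 200.2 CPM in WT against 131 and 77.7 in NHD13. Flt3, the gene of a marker sorted against, was uneven, at 10.4 and 15.4 CPM in WT and 59 and 4.33 CPM in NHD13.

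RefSeq start sites (GRCm38.p6) were matched for 7 of the 8 genes, all but Clec1a. The 250 bases before the start are shown for Clec12a and Clec2i, which were higher in NHD13, and for Clec1b and Clec9a, which were lower, so that neighbours of opposite direction can be compared. Capitals mark matches on either strand to motifs of blood cell factors, namely AGATAA for GATA factors, GAGGAA for ETS factors, TGTGGT for RUNX factors, TGATTNAT for HOX-PBX pairs and TTGCNNAA for C/EBP factors, where N is any base.
Clec12a, chr6:129349994-129350243, plus strand: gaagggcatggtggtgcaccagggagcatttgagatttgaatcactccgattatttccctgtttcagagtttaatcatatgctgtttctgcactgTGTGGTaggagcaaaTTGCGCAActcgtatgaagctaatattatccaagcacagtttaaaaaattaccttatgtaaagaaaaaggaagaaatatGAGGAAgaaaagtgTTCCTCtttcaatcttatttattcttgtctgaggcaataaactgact
Clec2i, chr6:128887337-128887586, plus strand: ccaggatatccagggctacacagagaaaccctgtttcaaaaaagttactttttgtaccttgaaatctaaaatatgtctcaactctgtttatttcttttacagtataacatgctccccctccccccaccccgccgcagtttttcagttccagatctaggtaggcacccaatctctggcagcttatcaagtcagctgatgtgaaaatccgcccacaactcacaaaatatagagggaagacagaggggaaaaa
Clec1b, chr6:129397047-129397296, plus strand: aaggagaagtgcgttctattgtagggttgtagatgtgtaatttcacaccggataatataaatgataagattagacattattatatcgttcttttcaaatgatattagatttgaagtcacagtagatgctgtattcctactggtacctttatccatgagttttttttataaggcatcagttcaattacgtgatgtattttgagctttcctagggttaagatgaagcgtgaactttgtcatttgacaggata
Clec9a, chr6:129408612-129408861, plus strand: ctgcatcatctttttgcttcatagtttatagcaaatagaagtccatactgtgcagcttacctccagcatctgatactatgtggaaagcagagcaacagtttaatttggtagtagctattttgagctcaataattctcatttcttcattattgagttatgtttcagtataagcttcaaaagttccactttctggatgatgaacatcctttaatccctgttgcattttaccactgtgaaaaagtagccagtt

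In the Clec12a sequence 1 RUNX, 1 C/EBP and 2 ETS matches were found, at 155, 140, 61 and 47 bases before the start. Over the same length, 14.2 percent of 27025 RefSeq promoters held the RUNX letters, 9.55 percent the C/EBP letters and 23.1 percent the ETS letters. None of the searched letters was found in the windows of Clec2i, Clec1b, Clec9a, Clec2d and Clec12b, and Clec7a had 1 ETS match. The GATA letters, in 10.3 percent of promoters, and the HOX-PBX letters, in 2.99 percent, were in none of the 7 windows, nor was the longer ETS form GAGGAAGT (2.44 percent), which contains the shorter one.

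Clec1a had by far the highest level per length of the 8 genes in WT and was close to lost in NHD13. Its product is a receptor described on endothelium and some myeloid cells. WT libraries 1 and 2 held 5878 and 5472 counts of Clec1a, NHD13 libraries 1 and 2 only 121 and 170. In CPM this was 135 and 149.8 against 3.52 and 3.47, with both NHD13 libraries low and nearly equal and the groups far apart. The group means were 142 ± 10.3 CPM (SD, n = 2) in WT and 3.5 ± 0.0368 CPM in NHD13. The fitted log2 fold change was -5.35 ± 0.12 (SE), that is 40.7-fold lower in NHD13, the 52nd lowest log2 fold change of all genes tested. In bulk samples such as these, fewer cells of a type and less RNA per cell cannot be told apart.

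Of the Syk-coupled receptors, Clec9a and Clec1b were lower in both NHD13 libraries, while Clec7a was far lower in only one of them. Clec9a encodes a receptor of cross-presenting dendritic cells that binds actin filaments exposed by dead cells. Its counts were 267 and 296 in WT against 6 and 23 in NHD13, or 6.14 and 8.1 against 0.175 and 0.469 CPM. The WT libraries lay close together and well above both NHD13 libraries, with a log2 fold change of -4.42 ± 0.57 (21.4-fold lower).

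Clec1b encodes CLEC-2, the platelet receptor for podoplanin. Its counts were 200 and 104 in WT against 25 and 39 in NHD13, or 4.6 and 2.85 against 0.728 and 0.796 CPM. The WT libraries differed from each other, but the lower of them was still above both NHD13 libraries (log2 fold change -2.28 ± 0.43). Clec7a encodes Dectin-1, the beta-glucan receptor of myeloid cells, which signals through Syk and Card9. With 580 and 699 counts from WT cells against 408 and 125 from NHD13 cells, Clec7a stood at 13.3 and 19.1 against 11.9 and 2.55 CPM. NHD13 library 1 lay just under WT library 1, and only NHD13 library 2 was far below. The log2 fold change of -1.18 ± 0.72 became -0.45 without NHD13 library 2 and -2.66 without NHD13 library 1.

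The inhibitory receptor genes, which are next to each other on the chromosome, differed from WT in opposite directions. Clec12a encodes an inhibitory receptor of granulocytes and monocytes, also used as a surface marker of leukemic stem cells in human acute myeloid leukemia. WT libraries held 204 and 133 counts and NHD13 libraries 1623 and 1177. In CPM this was 4.69 and 3.64 against 47.2 and 24, so that both NHD13 libraries were far above WT, with library 1 the higher. The log2 fold change was 3.09 ± 0.39, 8.53-fold higher. Of the printed 4 promoters only that of Clec12a held motif letters. That of Clec7a, not printed, held 1 ETS match, and that of Clec2i, also higher in NHD13, held none. Whether these letters bear on the levels was not tested.

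Clec12b, which also encodes an inhibitory receptor, had the lowest mean level per length of the 8 in both groups. Its WT libraries had 77 and 38 counts, against 0 and 9 in NHD13, or 1.77 and 1.04 against 0 and 0.184 CPM. Both WT libraries were above both NHD13 libraries, and the count of 0 in NHD13 library 1 allows up to 0.0873 CPM there (3 counts, counting error only). The log2 fold change of -3.79 ± 1.21 rests on few reads. It was -2.91 without NHD13 library 1 and -8.75 without NHD13 library 2, where the only NHD13 library left is at 0 and the value depends on the prior count.

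Of the ligands for natural killer cell receptors, Clec2i was higher in NHD13 and Clec2d was not separated. Clec2i encodes Clr-g, a ligand of the receptor encoded by Klrb1f. Its WT libraries had 154 and 21 counts, against 1336 and 1719 in NHD13, or 3.54 and 0.575 against 38.9 and 35.1 CPM. The NHD13 libraries were alike and the WT libraries were not, WT library 1 standing well above WT library 2. The log2 fold change was 4.15 ± 0.80 (17.7-fold higher), 3.38 without WT library 2 and 5.99 without WT library 1. Clec2d encodes Clr-b, the widely expressed ligand of the inhibitory receptor encoded by Klrb1b. Counts of 251 and 305 in WT and 264 and 404 in NHD13 gave 5.77 and 8.35 against 7.68 and 8.24 CPM. Both NHD13 libraries fell between the WT libraries, and the log2 fold change of 0.17 ± 0.27 was within its error.

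**Figure D1:**
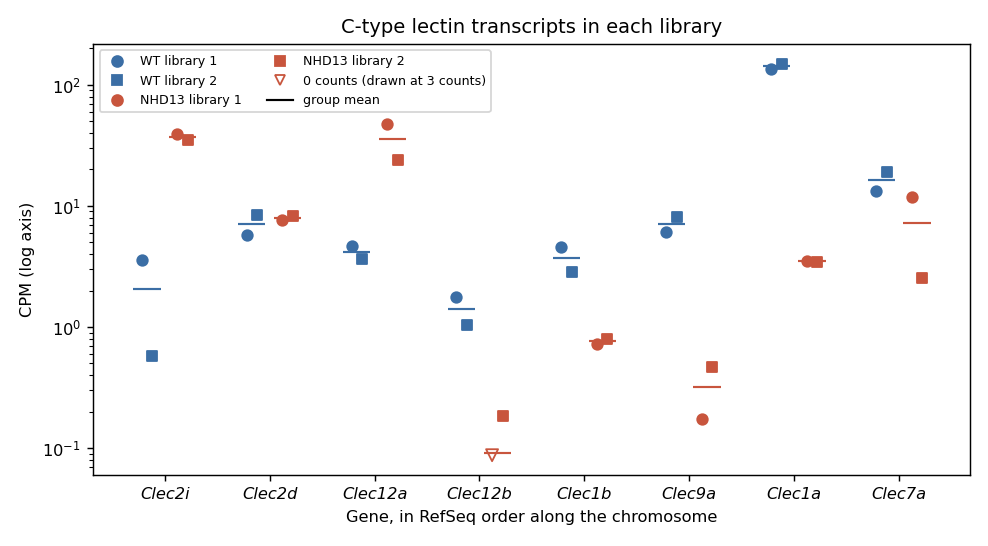
CPM of the 8 genes on a log axis, 1 point per library (blue WT, red NHD13; circles library 1, squares library 2) with a line at each group mean. Clec1a goes from 135 and 149.8 CPM to 3.52 and 3.47, Clec2i and Clec12a lie above WT in both NHD13 libraries, and the open triangle is the count of 0 of Clec12b drawn at 3 counts.

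All 8 genes passed the filter on low counts, which asks for about 10 counts in 2 libraries, but Clec9a and Clec12b passed only through WT, where they were higher. Of the 8 log2 fold changes 5 were below 0 and 3 above. In edgeR's fit 3 genes were past the threshold (Clec1a and Clec9a lower, Clec12a higher), against 4.28 percent of all genes, and the CPM of 7 did not overlap between the groups, against 60.4 percent of all genes. Since this contrast chose the genes, nothing is read from these counts. The median log2 fold change was -1.73 over the 8 genes and 0.00 over all genes tested.

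The order of the genes by level differed between the groups. To compare genes, CPM were divided by the length in kilobases of the matching GENCODE M21 transcript, from 1090 bases for Clec1b to 3293 for Clec9a. In WT, Clec1a was first at 45.6 ± 3.31 CPM per kilobase (SD, n = 2), followed by Clec7a at 7.14 ± 1.8 and Clec2d at 5.82 ± 1.5, whose libraries overlapped with those of Clec7a. Next on that scale came Clec1b (3.42 ± 1.14), Clec9a (2.16 ± 0.421), Clec2i (1.89 ± 1.92), Clec12a (1.66 ± 0.297) and Clec12b (1.05 ± 0.387). The WT libraries of Clec2i were uneven, at 0.527 and 3.25 CPM per kilobase, and overlapped with those of Clec1b, Clec9a, Clec12a and Clec12b, as Clec9a did with Clec12a, so the order among these is not settled. In NHD13, Clec2i was first at 33.9 ± 2.46 CPM per kilobase and Clec12a followed at 14.2 ± 6.56. Clec2d (6.57 ± 0.327), Clec7a (3.17 ± 2.9) and Clec1a (1.12 ± 0.0118) came after them, with Clec7a reaching down to the level of Clec1a in NHD13 library 2. Clec1b was at 0.699 ± 0.0443, and Clec9a (0.0978 ± 0.0633) and Clec12b (0.0688 ± 0.0973) overlapped at the bottom.

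As shares of the summed CPM per kilobase of the 8 genes, Clec1a made up 65.1 and 67.5 percent in the WT libraries and 1.66 and 2.14 percent in the NHD13 libraries. Clec2i went the other way, with 4.89 and 0.741 percent in WT and 52.5 and 62.1 percent in NHD13. For Clec12a the shares were 2.82 and 2.05 percent against 27.8 and 18.5 percent. The sum itself was 66.4 and 71.1 CPM per kilobase in WT and 67.9 and 51.8 in NHD13, so that NHD13 library 1 lay between the WT libraries and NHD13 library 2 below them.

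**Figure D2:**
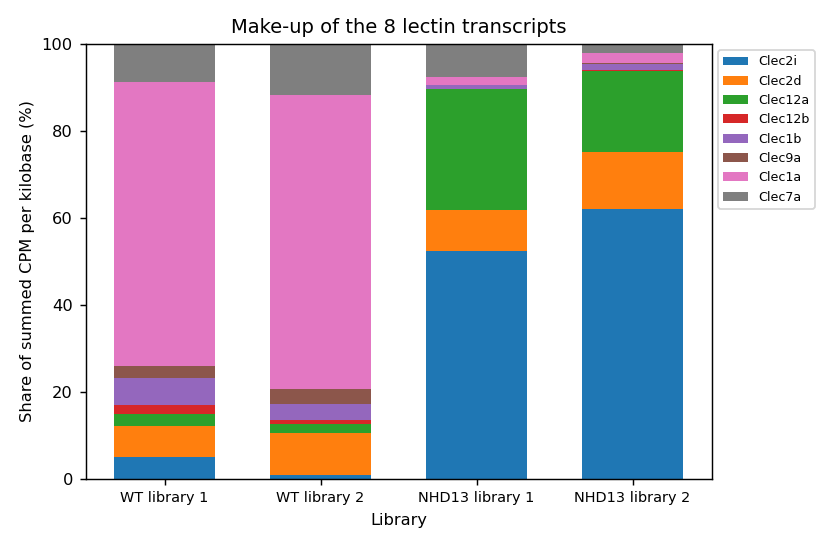
Share in percent of each of the 8 genes in their summed CPM per kilobase, 1 stacked bar per library. Clec1a fills 65.1 and 67.5 percent of the WT bars, and Clec2i fills 52.5 and 62.1 percent of the NHD13 bars.

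In RefSeq gene order (GRCm38.p6, used for order only because the counts were made on mm9) the stretch that holds the 8 genes, with 5 protein-coding genes on each side, has 24 protein-coding genes. Clec12b, Clec1b, Clec9a and Clec1a, all lower in NHD13, follow each other without a break, with Clec12a on one side and Clec7a and then Olr1 on the other. Of the other 16 genes 10 were tested, and edgeR called 1 higher and 0 lower. That gene was Cd69, which encodes an early activation antigen of lymphocytes and lies beside Clec2d. Cd69 rose from 19.6 and 37.5 CPM to 410.3 and 258 CPM in NHD13 (log2 fold change 3.55 ± 0.41, edgeR adjusted p 0.0275). It was not called without NHD13 library 1 (adjusted p 0.12), without NHD13 library 2 (0.0512) or without a filter (0.0886).

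Other neighbours were not called by edgeR. BC035044, next to Clec2i, was at 1.13 and 0.52 CPM in WT and 27.4 and 7.51 CPM in NHD13 (edgeR adjusted p 0.056). Olr1, which encodes a receptor for oxidized lipoprotein, was at 0.299 and 0.712 CPM in WT and 3.52 and 2.37 CPM in NHD13 (edgeR adjusted p 0.0833). Gabarapl1, an autophagy gene further along, was at 275 and 265 CPM in WT and 132 and 181 CPM in NHD13 (edgeR adjusted p 0.0703). In each of these 3 genes the groups did not overlap, as in 60.4 percent of all genes tested.

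**Figure D3:**
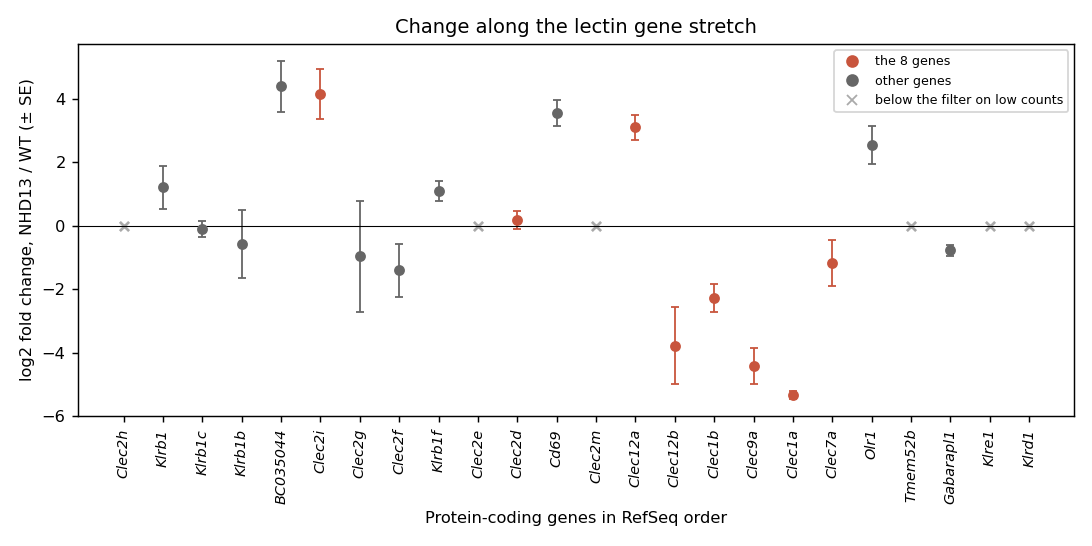
Log2 fold change of NHD13 against WT with its standard error for the 24 protein-coding genes of the stretch in RefSeq order, the 8 genes in red, others in grey, and crosses at 0 for genes below the filter on low counts. Clec12b, Clec1b, Clec9a and Clec1a lie below 0 side by side, between Clec12a at 3.09 and Clec7a at -1.18.

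Reads of one lectin gene could be counted for another where transcripts share sequence. Among all words of 75 bases, the read length, in the matching GENCODE M21 transcripts, Clec1a, Clec1b, Clec2d, Clec7a, Clec12a and Clec12b had none in common with another gene's transcripts. Clec2i shared 29 of 1017 words (2.85 percent) with Clec2h, which was at 0 to 0.138 CPM. Clec9a shared 111 of 3219 words (3.45 percent) with transcripts of Clec1b, a gene with overlapping exons. The Clec1b transcript matched here held 0 of these words, so they lie in other transcripts of Clec1b. Whether reads of those were counted for Clec9a was not tested. Deposited transcripts of the same gene had near-equal counts, 1326 to 1336 for those of Clec2i in NHD13 library 1 and 245 to 267 for those of Clec9a in WT library 1.

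Most other lectin-like genes of the natural killer gene complex were below the filter. Of 34 listed genes 32 were found under these symbols and 12 were tested, of which edgeR called 2 higher and 0 lower, with a median log2 fold change of 1.78. The call besides Cd69 was Klra17, a gene of the Ly49 receptor family, at 0.092 and 0.0821 CPM in WT and 1.31 and 1.18 CPM in NHD13 (log2 fold change 3.79 ± 0.59, edgeR adjusted p 0.044). Klra17 had 7 counts in WT in all and passed the filter only through NHD13, so a higher level there was a condition of its test. Klra17 was not called without NHD13 library 1 (edgeR adjusted p 0.192) or without NHD13 library 2 (0.112).

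Clec2f and Clec2g, which lie between Clec2i and Clec2d, had no high level in NHD13. Clec2f was at 0.291 and 0.592 CPM there and at 1.86 and 0.493 in WT, and Clec2g at 0.204 and 0.694 CPM against 1.77 and 0. Both overlapped between groups and were not called (edgeR adjusted p 0.346 and 0.767). Klrb1f, the receptor gene for the Clec2i product, was at 2.97 and 3.48 CPM in WT and 8.003 and 5.76 CPM in NHD13 (edgeR adjusted p 0.11).

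Among further C-type lectin genes, whose positions were not examined, 23 of 38 were tested. Of these edgeR called 2 higher and 1 lower, and 17 log2 fold changes were above 0, with a median of 0.63. Clec4e, which encodes the Syk-coupled receptor Mincle, rose from 6.76 and 4.73 CPM to 148 and 59.2 CPM (log2 fold change 4.17 ± 0.52, adjusted p 0.0318). Clec4d, which encodes its partner receptor, rose from 3.13 and 2.71 to 13.7 and 9.53 CPM (1.99 ± 0.29, adjusted p 0.039). Cd302, which encodes a lectin-like endocytic receptor, fell from 27.1 and 23 to 5.33 and 2.94 CPM (-2.61 ± 0.33, adjusted p 0.0321). Clec4d was not called without NHD13 library 1 (edgeR adjusted p 0.104) and Clec4e not without a filter (0.112). Clec14a, a lectin gene of endothelium, had 12.5 and 14 CPM in WT and 2.62 and 0.49 CPM in NHD13 and was not called (edgeR adjusted p 0.0939).

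The signalling genes below these receptors were all tested, 44 of 44 listed. edgeR called 3 higher and 1 lower, and the median log2 fold change was 0.26. Syk was at 67.6 and 75.1 CPM in WT and 137 and 96.5 CPM in NHD13 (edgeR adjusted p 0.102). Card9, the adaptor gene below Dectin-1, was at 0.368 and 0.164 against 2.18 and 1.61 CPM (edgeR adjusted p 0.073). Ptpn6 overlapped between groups, at 245 and 322 CPM in WT and 288 and 274 CPM in NHD13. The adaptor gene Lat rose by 0.68 ± 0.09 on the log2 scale (edgeR adjusted p 0.035), and the kinase gene Fyn by 1.05 ± 0.15 (0.0373). Nfkb1, an NF-kB subunit gene, rose by 0.78 ± 0.11 (adjusted p 0.0397). The kinase gene Src fell from 2.35 and 2.22 CPM to 0.233 and 0.204 CPM (-3.37 ± 0.48, adjusted p 0.038), and as it passed the filter only through WT, a lower level in NHD13 was a condition of its test. Without NHD13 library 1 none of these 4 was called by edgeR (adjusted p 0.0519 for Nfkb1 to 0.117 for Src), and without NHD13 library 2 Nfkb1 (0.0507), Fyn (0.0618) and Src (0.0707) were not. Over the whole list DESeq2 called 14 higher and 3 lower, and limma-voom 3 higher and 1 lower. Of all 14853 genes tested DESeq2 called 2604 and limma-voom 619.

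Of ligands and counter-receptors 7 of 10 were tested and 1 was called, higher. It was Lgals9, which encodes galectin-9, a reported ligand of Dectin-1, at 307 and 322 CPM in WT and 952 and 647 CPM in NHD13 (log2 fold change 1.35 ± 0.20, edgeR adjusted p 0.0398). Pdpn, which encodes podoplanin, was below the filter at 0 to 1.2 CPM over the 4 libraries. Klrb1b, the receptor gene for the Clec2d product, had 0.0291 to 0.286 CPM.

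**Figure D4:**
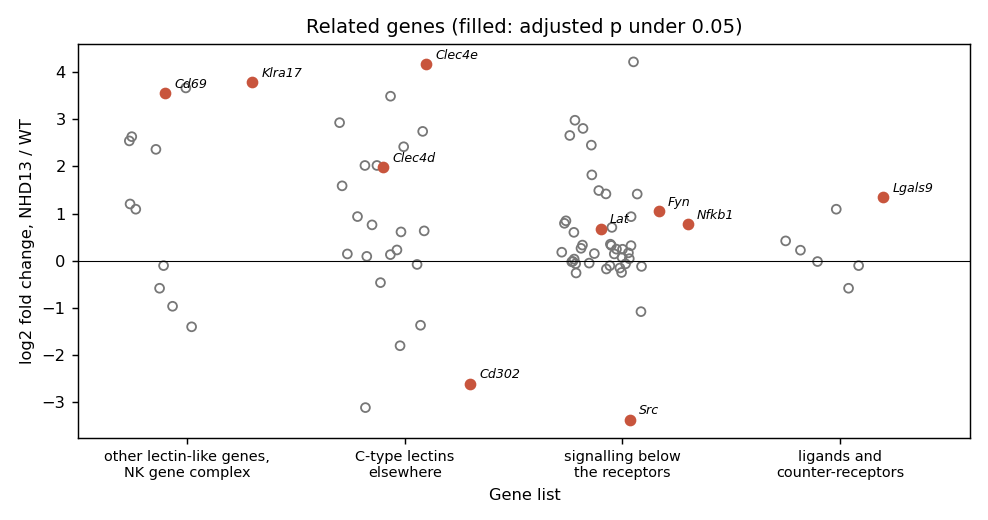
Log2 fold change of NHD13 against WT for the tested genes of 4 lists, 1 point per gene, filled and named where edgeR's adjusted p was under 0.05. The named genes are Cd69, Klra17, Clec4e, Clec4d, Lat, Fyn, Nfkb1 and Lgals9 above 0, and Cd302 and Src below 0.

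Marker lists of other cell types differed between the groups too. Beside Clec12a and Clec7a, the summed level of 13 neutrophil genes was 356 and 303 CPM in WT and 3062 and 408 CPM in NHD13. edgeR called 0 of the 13 tested and 4 were at an unadjusted p under 0.05, with 2 called by DESeq2 and 0 by limma-voom; the smallest p were those of Ltb4r1 and Mmp9 (edgeR adjusted p 0.085 and 0.102). For 7 granulocyte precursor genes the sum was 354 and 343 CPM in WT and 1330 and 926 CPM in NHD13. Most of the WT sum was Prtn3, at 270 and 273 CPM, against 229 and 165 CPM in NHD13. Prtn3 was the 1 gene of the 7 with a log2 fold change below 0 (-0.47 ± 0.17) and was not called (edgeR adjusted p 0.171). edgeR called Mpo, Ms4a3, Ctsg and Elane higher, Mpo by 3.88 ± 0.17 on the log2 scale (adjusted p 0.0047). Ctsg was not called without NHD13 library 1 (edgeR adjusted p 0.0752) or by limma-voom (0.0652), nor was Elane (0.0517 and 0.0608), which was not called by edgeR without a filter either (0.178). The sum of 18 monocyte and macrophage genes was 452 and 446 CPM in WT against 1357 and 429 CPM in NHD13. Most of it was Lyz2, at 395 and 409 CPM in WT and 1003 and 277 CPM in NHD13. Of 15 tested genes 12 had a log2 fold change above 0 and 3 below, with a median of 1.26. Cd68 was the 1 called, higher (edgeR adjusted p 0.0151). Clec12a and Clec7a, like these 3 lists, were higher in NHD13 library 1 than in NHD13 library 2. The part of these cells in the levels of Clec12a and Clec7a was not tested.

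Beside Clec9a, the dendritic cell list of 17 genes summed to 708 and 755 CPM in WT and 658 and 381 CPM in NHD13. Of 15 tested members 8 had a log2 fold change above 0 and 7 below, with a median of 0.26. edgeR called 3 lower and 0 higher, namely H2-Aa, H2-Eb1 and H2-Ab1 (adjusted p 0.0026, 0.0047 and 0.0141). These 3 encode MHC class II chains also made by other cells. H2-Aa was at 165 and 183 CPM in WT and 13.8 and 14.7 CPM in NHD13. Over the 4 libraries Xcr1 was at 0.164 to 0.449 CPM, Batf3 at 0 to 0.092 and the general dendritic cell gene Itgax at 0.069 to 0.116, while Irf8 was at 7.35 to 22.7 and Ly75 at 16.8 to 26 CPM. Zbtb46 was at 4.25 and 3.39 CPM in WT and 0.669 and 1.02 CPM in NHD13 (edgeR adjusted p 0.062). The part of dendritic cells in the Clec9a level was not tested.

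Beside Clec1b, the megakaryocyte and platelet list of 18 genes summed to 3552 and 3756 CPM in WT and 1660 and 2007 CPM in NHD13. Of 17 tested members edgeR called 2 lower and 0 higher, Mmrn1 (-3.55 ± 0.40 on the log2 scale, adjusted p 0.026) and Gp9 (-1.05 ± 0.14, adjusted p 0.0334). Mmrn1 was not called without a filter (edgeR adjusted p 0.0847), and Gp9 not without NHD13 library 1 (0.0925). The platelet granule genes Pf4 and Ppbp were not called, with Pf4 at 57.2 and 30.8 CPM in WT and 90.5 and 112 CPM in NHD13. Their part in the Clec1b level was not tested.

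Beside Clec1a, the endothelium list of 18 genes, several of which stem cells also express, summed to 1002 and 958 CPM in WT and 355 and 639 CPM in NHD13. Of 16 tested genes 14 had a log2 fold change below 0, and edgeR called 0, with 8 at an unadjusted p under 0.05; lower calls numbered 8 by DESeq2 and 1 by limma-voom. The smallest p were those of Esam and Flt4 (edgeR adjusted p 0.0625 and 0.085), Cdh5, the endothelial cadherin gene, was at 0.0291 to 0.438 CPM, and Sox17 had 0 counts in every library. The stem cell list of 19 genes summed to 7037 and 7460 CPM in WT and 3999 and 4678 CPM in NHD13, with 6 called lower and 0 higher by edgeR. Among them were Ndn (-5.10 ± 0.13 on the log2 scale, adjusted p 0.00147), Mllt3 (0.00719), Ctnnal1 (0.0202) and Angpt1 (0.0319). Without NHD13 library 1 Ctnnal1 (0.0591) and Angpt1 (edgeR adjusted p 0.0823) were not called, and without NHD13 library 2 Angpt1 was not (0.0575). The part of these cells in the Clec1a level was not tested.

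Beside Clec2i, 17 genes of T and natural killer cells summed to 86.3 and 89.96 CPM in WT and 209 and 347 CPM in NHD13. Of 13 tested genes 8 log2 fold changes were above 0 and 5 below. Nkg7 was called higher (edgeR adjusted p 0.0293), at 18.9 and 18 CPM in WT and 153 and 82.2 CPM in NHD13. Genes of this list, picked after their values were seen, differed in NHD13 library 2. Lck, Cd3e, Cd3g and Gzmb were high in that library only, while Cd3d, Cd2 and Il2rb were not high in it. Lck was at 97.3 CPM there and 15.4 to 17.5 elsewhere, and Cd3e at 36.3 and 0.493 to 0.728 CPM. Cd3d was at 0.633 CPM there and 0.407 to 0.736 elsewhere, and Cd2 at 0.224 and 0.301 to 0.943 CPM. The natural killer receptor gene Ncr1 was at 0.0291 to 0.414 CPM. In the B cell list, with 10 genes tested, edgeR called Cd79a higher (adjusted p 0.0454). That call was lost without NHD13 library 1 (0.0879), without NHD13 library 2 (0.074), with library totals as the scaling (0.0553) and with summed transcripts (0.0583). In the mast cell and basophil list, with 7 genes tested, edgeR called Fcer1a lower (adjusted p 0.0444). Fcer1a had 40 and 62 counts in WT, 0 and 1 in NHD13, and passed the filter only through WT, so a lower level in NHD13 was a condition of its test. It was not called without NHD13 library 1 (edgeR adjusted p 0.138) or without NHD13 library 2 (0.0655). Summed CPM in the 4 libraries, WT first, were 78.3, 85.6, 94.4 and 101 for B cells and 251, 244, 564 and 418 for mast cells and basophils. Gata2 was most of the latter sum in WT, at 223 and 230 CPM, against 399 and 292 CPM in NHD13. For erythroid cells the sums were 3886, 4388, 1973 and 2798. Most of this was Car2, at 3596 and 4146 CPM in WT and 1709 and 2435 CPM in NHD13. Of the 11 erythroid genes tested 6 had a log2 fold change above 0 and 5 below, with a median of 0.15.

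**Figure D5:**
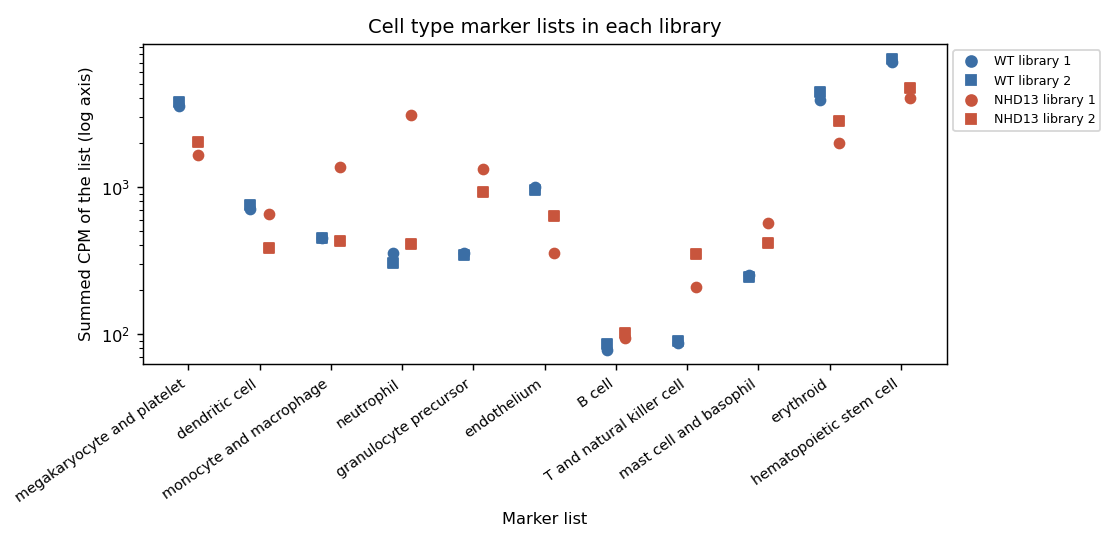
Summed CPM of each cell type marker list on a log axis, 1 point per library (blue WT, red NHD13; circles library 1, squares library 2). The neutrophil list reaches 3062 CPM in NHD13 library 1 alone, while the stem cell, megakaryocyte and endothelium lists are lower in both NHD13 libraries than in WT.

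The genes whose profile was most like that of Clec1a were found by the Euclidean distance between log2 CPM values, each centred on its mean over the 4 libraries, among 12200 genes averaging 1 or more on the log2 CPM scale. Ndn was nearest at a distance of 0.269, with 86.2 and 87.3 CPM in WT and 2.44 and 2.59 CPM in NHD13. B3galt1, a galactosyltransferase gene, followed at 0.41, Hoxb2, a homeobox gene, at 0.688, Wfdc2 at 0.731 and H2-T3 at 0.734. B3galt1 was at 12.2 and 11.9 CPM in WT and 0.233 and 0.204 CPM in NHD13. Over 4 libraries in 2 groups, a small distance mainly reflects a similar fold change.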

How the data were processed

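RNA was extracted with Trizol, cDNA made with the SMARTer Ultra Low RNA kit and sequencing done in paired reads of 75 bases, per the labels' protocols. Bowtie 0.12.2 and the build mm9 are named in the submitters' processing notes. Which counting program and strand setting made the counts was not given in the sources used here. The deposited values are raw counts per RefSeq transcript (33018 transcripts of 24016 symbols), with no normalization, in 1 table per library.

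The transcript with the highest total was kept for each symbol. edgeR 4.0.16 (R 4.3.3) was run on all genes with its default filter on low counts, TMM scaling and a robust quasi-likelihood fit comparing NHD13 with WT; adjusted p under 0.05 made a call. The standard error is the absolute log2 fold change over the square root of F. The script was tested on simulated data. Alternatives were DESeq2 1.42.0, limma-voom (limma 3.58.1), other scalings and filters, a non-robust fit, summed transcripts, a block for the replicate number and fits with 1 library removed; crossed numbers as the block were added after seeing the data. Lengths and shared words came from GENCODE M21. The genes, lists and tests were chosen with earlier results of these data known. Protein sequences were not used here. Named genes were the 8 lectins, per list up to 4 called genes with the smallest adjusted p (2 with the smallest p where none was called), the 5 genes most like Clec1a and the chromosome neighbours. Genes named for their role, among them Syk, Card9, Ptpn6, Pdpn, Clec14a, Pf4, Xcr1, Irf8, Ly75, Zbtb46, Cdh5, Ncr1 and Kit, were picked after their values were seen. So were Flt3 and the genes named for their size in a sum, Lyz2, Prtn3, Car2 and Gata2. One gene that this rule names is not reported here.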

Additional observations from a re-analysis of the deposited data

How the results depend on the processing

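The log2 fold changes of the 8 lectin genes kept their sign in all 14 alternatives, except that of Clec2d, which was -0.07 without WT library 1. Over the alternatives Clec1a ranged from -5.43 to -5.27, Clec9a from -5.32 to -3.91, Clec1b from -2.59 to -1.90, Clec12a from 2.54 to 3.51, Clec2i from 3.38 to 5.99 and Clec7a from -2.66 to -0.45. Of all genes called (636, of which 307 higher and 329 lower), other settings gave 1138 without a filter (532 higher and 606 lower), 1066 with at least 1 CPM in both libraries of a group (467 and 599), 2604 by DESeq2 (1218 and 1386) and 402 with summed transcripts (190 and 212). Leaving out 1 library gave 0 to 990 calls (0 to 449 higher and 0 to 541 lower), 0 without WT library 1 or WT library 2, 270 without NHD13 library 1 and 990 without NHD13 library 2; the lone library left is assumed to vary like the other group. With the replicate number as a block 107 genes were called (66 higher and 41 lower, or 61.7 percent higher against 48.3 percent). Deviations of same-numbered libraries correlated at -0.24, and with crossed numbers as the block 647 were called; the labels give the numbers no meaning. Why the counts moved was not tested. At 9 counts in NHD13 in all, the fold change of Clec12b is limited by depth.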

Other observations

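Several lectin genes were higher in WT library 1 than in the other libraries, as Clec2i was within WT. The scavenger receptor gene Colec12 was at 4.76 CPM in WT library 1, and at most 0.143 CPM elsewhere. Pla2r1, which encodes a phospholipase receptor with lectin domains, was at 5.45 CPM in WT library 1 and 0.204 to 0.233 in the others. Klra4 was at 0.92 CPM there and 0 to 0.175 elsewhere. These genes were below the filter and were picked after their values were seen.

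Clec4a1, Clec4a2 and Clec4a3, picked after their values were seen, were higher in NHD13 library 1 than in NHD13 library 2. Clec4a2 was at 16.1 CPM in library 1 and 4.71 in library 2 of NHD13, with 1.29 and 0.547 in WT. Clec4a3 was at 4.16 and 0.735 CPM in NHD13 and 0.575 and 0.328 in WT, and Clec4a1 at 3.7 and 0.653 against 0.621 and 0.438. None of these 3 was called by edgeR (adjusted p 0.0759, 0.191 and 0.238).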
